A study of Homo sapiens with 61 samples.

Results

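Receptor genes of the tumour necrosis factor (TNF) receptor superfamily were followed by RNA sequencing in human neurons exposed to vincristine, a drug that depolymerises microtubules and injures axons. The members were 10 genes: TNFRSF12A, TNFRSF10A, TNFRSF10B, TNFRSF10D, TNFRSF21, TNFRSF1A, TNFRSF19, FAS, NGFR and EDA2R, of 58440 gene identifiers counted. They were taken by name through the GENCODE 29 annotation. TNFRSF12A was selected on its measured rise with vincristine in wild-type neurons, so all its values in the experiment that holds those neurons are given as a description with no test.

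The neurons came from WTC11, a widely used line of human induced pluripotent stem cells, and were driven to a cortical type by the transcription factor NGN2. The first experiment compared a wild-type line (WT) with lines that lack DLK (the kinase encoded by MAP3K12), LZK (encoded by MAP3K13) or both (DLK LZK double KO). The second used WTC11 neurons with CRISPR interference, which silences a promoter, and a guide RNA against ATF2, against JUN or with no target (Control gRNA). Neurons of every line received 5 nM vincristine or the solvent DMSO (called untreated) for 16 hours, and were harvested after 10 to 14 days of differentiation per the protocol in the labels. The text of the series gives day 14. Each group had 4 libraries in the first experiment and 5 in the second, except the ATF2 gRNA vincristine group with 4. The labels do not give the number of clones per line, nor whether the libraries of a group were separate cultures, so the p-values measure the spread between these libraries, which may be technical. In bulk RNA, fewer cells of a type and less RNA per cell cannot be told apart.

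Libraries held 8410729 to 14647819 counted reads in the first experiment and 38925807 to 88392414 in the second, so genes at a few counts were measured with less error in the second. The targeted transcripts matched the labels. MAP3K12 averaged 91.0 CPM (reads scaled to the total of each library) in untreated WT and 26.3 CPM in DLK KO neurons, and MAP3K13 99.1 and 31.9 CPM in WT and LZK KO neurons. Untreated double KO neurons averaged 19.7 CPM of MAP3K12 and 29.6 CPM of MAP3K13. ATF2 averaged 129 CPM with the Control guide and 0.526 CPM with the ATF2 guide, and JUN 88.5 and 2.87 CPM with the Control and JUN guides. JUN was also low with the ATF2 guide, at 21.0 CPM untreated and 20.5 CPM with vincristine, where the vincristine-treated Control gRNA neurons had 237 CPM. Among the untreated knockout lines JUN averaged 140 CPM in WT, 55.3 CPM in DLK KO, 116 CPM in LZK KO and 39.6 CPM in double KO neurons. ATF2 averaged 141, 71.0, 165 and 148 CPM in the same lines. The summed level of 10 neuron markers did not overlap between some of the groups. It was 8660 to 9200 CPM in untreated WT and 6730 to 7600 CPM in untreated DLK KO libraries, 9340 to 9780 CPM in untreated and 7840 to 8390 CPM in treated Control libraries, and 7130 to 7510 CPM in untreated ATF2 gRNA libraries. Its part in the receptor levels was not tested.

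Receptors of this superfamily bind trimeric ligands at the cell surface and signal through adaptors. Members with an intracellular death domain (TNFRSF10A, TNFRSF10B, TNFRSF1A, FAS, TNFRSF21 and NGFR) can signal cell death. Several of them, such as FAS and TNFRSF10B, recruit FADD or TRADD and activate caspases. Members such as TNFRSF12A, TNFRSF19 and EDA2R bind TRAF adaptors that feed into NF-kB and JNK. DLK and LZK are kinases that sense axon injury and act through JNK on transcription factors including JUN and ATF2. In neurons, TNFRSF12A (Fn14, the receptor of the ligand TWEAK) is known as a nerve injury gene, and NGFR (p75NTR) as a receptor of neurotrophins that takes part in growth, pruning and death.

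JUN and ATF2 bind short DNA elements as dimers, so the receptor promoters were searched for the letters TGANTCA (AP-1 element) and TGANNTCA (an element of the CRE type) on both strands. The windows ran from 250 bases before to 50 after each RefSeq gene start (GRCh38.p14). Of the 10 genes, 5 matched the RefSeq table, with 9 windows in all. Each site is shown 5′ to 3′ on the gene's strand with the matching letters in capitals, because these are the receptor promoters in which an element of JUN or ATF2 type was found.
TNFRSF21, chr6:47309964-47309989, minus strand: cctcccgggTGACATCAcaaagggcc
TNFRSF19, chr13:23570345-23570370, plus strand: ggcgctgaaTGATGTCAtgggatctg
FAS, chr10:88990548-88990573, plus strand: caagttgcTGAATCAatggagccctc
EDA2R, chrX:66639225-66639250, minus strand: gatgtgaaaTGAGTCAagcggaactt

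The element of TNFRSF21 began 75 bases before the gene start and that of TNFRSF19 58 bases before the first of its 2 starts. The element of FAS lay 242 bases before 1 of its 3 starts. The single element of EDA2R lay in the windows of both its starts, at positions 29 and -163 counted from them. The windows of TNFRSF1A held neither set of letters. Over all 34943 promoter windows, 7.72% held TGANTCA and 11.5% held TGANNTCA, so a match is a description and not a binding site. The 250 bases before the start of TNFRSF21, the receptor with the highest level in untreated WT and Control gRNA neurons, contained no annotated exon (chr6:47309906-47310155, minus strand, element in capitals):
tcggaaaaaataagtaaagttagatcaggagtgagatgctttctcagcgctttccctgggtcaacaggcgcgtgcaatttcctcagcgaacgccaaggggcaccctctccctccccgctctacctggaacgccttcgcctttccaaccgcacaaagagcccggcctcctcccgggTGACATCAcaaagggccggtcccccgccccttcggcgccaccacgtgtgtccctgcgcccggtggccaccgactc

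To rank the receptors against each other, levels were divided by exon length as well (RPKM). In untreated WT neurons TNFRSF21 was highest at 14.3 RPKM ± 0.793 (SD), followed by NGFR at 4.17 ± 0.549 and TNFRSF19 at 2.48 ± 0.250. TNFRSF10B (1.24 ± 0.218) and TNFRSF1A (1.20 ± 0.200) overlapped each other, and below them TNFRSF12A (0.341 ± 0.158), FAS, TNFRSF10D, EDA2R and TNFRSF10A each overlapped the next. Untreated Control gRNA neurons had TNFRSF21 highest as well, at 18.6 RPKM ± 0.888. There NGFR (5.03 ± 0.337), TNFRSF19 (4.95 ± 0.389) and TNFRSF1A (4.34 ± 0.277) overlapped in this order, and TNFRSF12A stood at 1.18 ± 0.304. With vincristine TNFRSF12A moved to the second place in WT neurons, at 7.59 RPKM ± 0.950, below TNFRSF21 at 10.6 ± 0.580. In vincristine-treated Control gRNA neurons it took the first place, at 20.0 RPKM ± 0.904 against 14.5 ± 0.477 for TNFRSF21, with no overlap between them. TNFRSF10A was nearly silent, with 0 to 4 reads in every library, and was not tested.

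**Figure D1:**
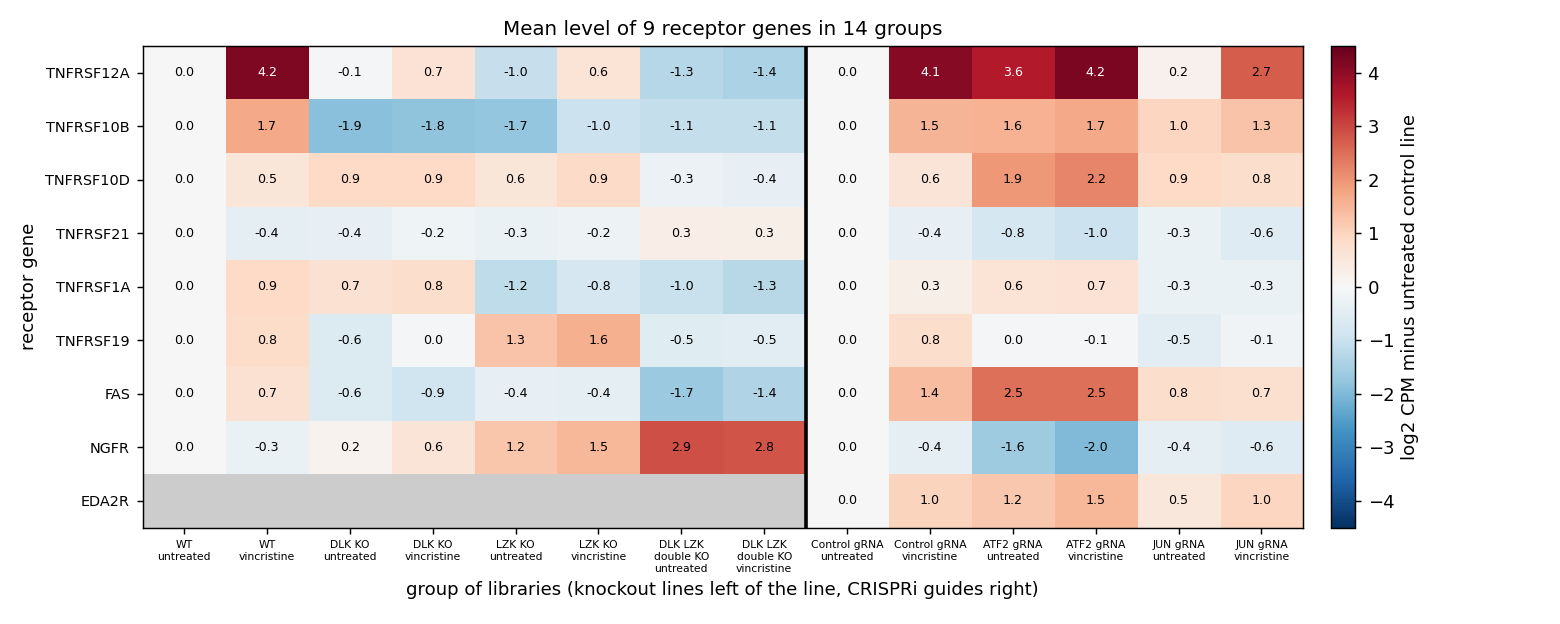
Heatmap of the mean log2 CPM of 9 receptor genes (rows) in 14 groups of libraries (columns), minus the untreated WT group (left of the line) or the untreated Control gRNA group (right of the line). TNFRSF12A stands 4.2 above untreated WT in vincristine-treated WT neurons and 3.6 above untreated Control in untreated ATF2 gRNA neurons, NGFR 2.9 above WT in untreated double KO neurons, and grey cells mark EDA2R in the first experiment, where its counts were too low to test.

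Of the 10 genes, 8 had enough counts to test in both experiments, and EDA2R in the second only. A gene was called at a Benjamini-Hochberg adjusted p under 0.05 over all genes tested. Leaving TNFRSF12A out in the first experiment, vincristine raised 3 and lowered 1 of 7 receptors in WT neurons, where 30.2% of all tested genes were called. It raised 2 of 7 in DLK KO neurons (6.53% of all genes called, 4.24% higher), raised 2 of 7 in LZK KO neurons (3.88%, 2.27% higher) and changed 0 of 7 in double KO neurons (0.0658%; of the 7, none had an unadjusted p under 0.05 in edgeR and DESeq2 called none). Among Control gRNA neurons it raised 6 and lowered 2 of 9 receptors (35.3% of all genes called), with a median log2 change of 0.79 over the 9 against 0.03 over all genes tested. Vincristine raised 1 and lowered 1 of 9 in ATF2 gRNA neurons (6.10%) and raised 4 and lowered 1 in JUN gRNA neurons (15.9%). The receptors that changed were TNFRSF10B, TNFRSF1A, TNFRSF19 and TNFRSF21 in WT neurons, and every tested receptor but TNFRSF10D in Control gRNA neurons.

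The lines also differed before treatment. In untreated DLK KO neurons 1 receptor was higher and 3 were lower than in WT, of 7 (34.5% of all genes called), in LZK KO neurons 2 higher and 3 lower (33.9%) and in double KO neurons 2 higher and 4 lower (45.7%). With the ATF2 guide, untreated neurons had 6 of 9 receptors higher and 2 lower than Control gRNA neurons (39.9%), with a median log2 difference of 1.24 against 0.02 over all genes. Untreated JUN gRNA neurons had 2 higher and 4 lower (11.2%). Tested directly, the vincristine effect differed from that of WT in 2 receptors upward and 2 downward of 7 in DLK KO (19.4% of all genes called) and in LZK KO neurons (12.4%), and in 1 upward and 3 downward in double KO neurons (19.4%). Against Control gRNA it differed downward in 4 of 9 receptors with the ATF2 guide (20.6%, 10.4% downward) and in 3 with the JUN guide (15.8%, 7.06% downward). The ATF2 and JUN guides differed from each other in 1 receptor, downward (2.83%, 1.92% downward). For double KO against DLK KO and against LZK KO neurons edgeR called none of 7 receptors (1.14% and 0.916% of all genes), with 2 and 2 at an unadjusted p under 0.05 and 0 called by DESeq2. With vincristine in both lines compared, 2 receptors were higher and 3 lower than WT, of 7, in DLK KO neurons (42.0%), 3 higher and 3 lower in LZK KO (42.7%) and 2 higher and 4 lower in double KO neurons (55.6%). In the same way, 5 receptors were higher and 3 lower with the ATF2 than with the Control guide (42.4%), and 5 were lower and none higher with the JUN guide (26.7%, 12.3% lower). Each lower count against treated WT includes FAS. That gene had enough counts to test only through the treated WT libraries (16 to 19 reads each). Its calls against them are therefore a description. The comparisons of vincristine effects and of untreated lines share the untreated libraries of each line, and those against a control line share that line's libraries.

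TNFRSF12A (ENSG00000006327.13, chr16:3018445-3022383, plus strand, GRCh38) was low in untreated WT neurons, at 0.860, 0.652, 0.211 and 0.795 CPM. With vincristine the 4 WT libraries read 13.8, 15.9, 14.7 and 11.8 CPM. All 4 treated libraries lay above all 4 untreated ones, a fitted fold of 23.0 that is given as a description because the gene was picked for it. Untreated DLK KO neurons had 0.861, 0.698, 0.442 and 0.323 CPM and treated ones 1.46, 0.683, 0.787 and 1.33 CPM. These ranges overlapped. LZK KO neurons went from 0.114, 0.361, 0.185 and 0.118 CPM, which are 1 to 3 reads a library, to 0.886, 0.950, 0.819 and 1.33 CPM, or 8 to 11 reads.

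In LZK KO neurons the ratio of treated to untreated summed counts, scaled to library size, was 5.13, with a 95% interval of 2.25 to 13.7 that covers counting error only. All 4 treated LZK KO libraries lay above the untreated ones, yet their mean of 0.997 CPM ± 0.229 was far below the 14.0 CPM ± 1.76 of treated WT neurons. Double KO neurons held 0 to 3 reads of TNFRSF12A in every library, untreated or treated, at or under a floor of 3 reads, so no fold between treatments is given. Before treatment, the ratio of summed TNFRSF12A counts to those of WT was 0.324 in LZK KO neurons (7 against 27 reads, counting interval 0.119 to 0.763) and 0.226 in double KO neurons (6 reads, 0.0763 to 0.559). Both groups overlapped WT by library. In double KO neurons the neighbours of TNFRSF12A were low too. Of 73 tested genes within 1 Mb, 62 were called lower and 1 higher than in untreated WT, with a median log2 difference of -1.05, against -0.21 in DLK KO and -0.10 in LZK KO neurons. The part of this shared fall in the level of TNFRSF12A was not tested.

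**Figure D2:**
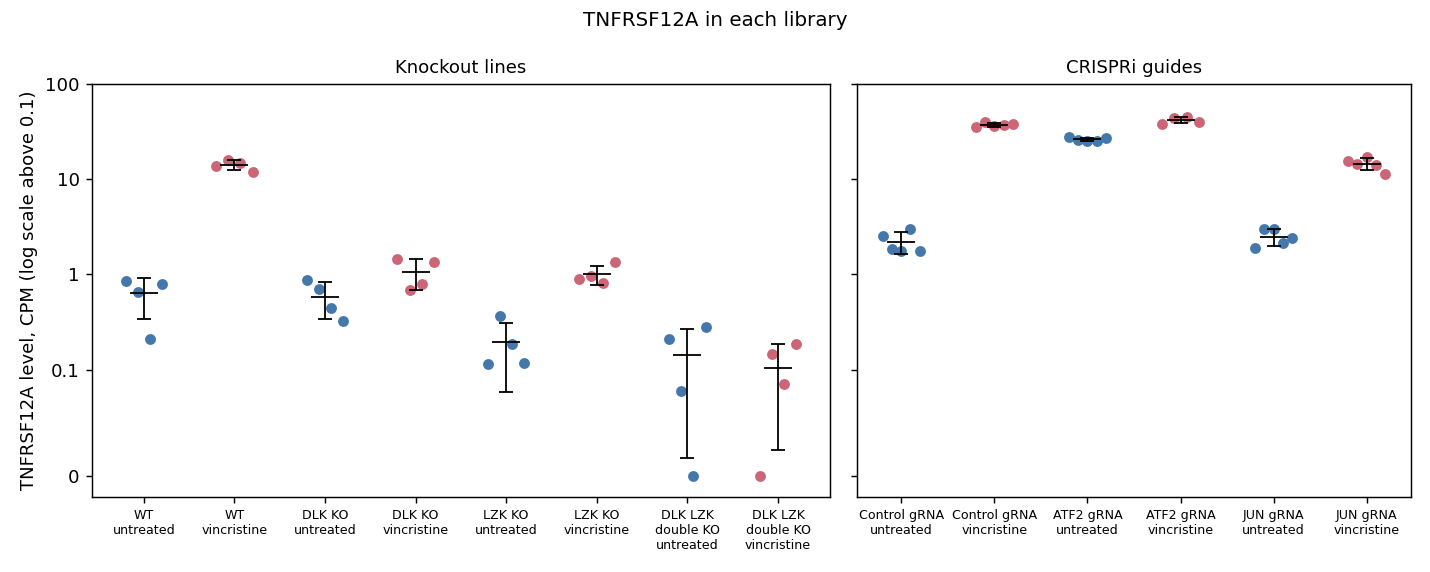
TNFRSF12A in CPM (vertical axis, logarithmic above 0.1 and linear below) in each library (points, blue untreated, red vincristine) of the knockout lines (left) and the CRISPR interference lines (right), with the mean (dash) and SD (bars). Treated WT libraries lie between 11.8 and 15.9 CPM with double KO libraries at 0.279 CPM or less, and untreated ATF2 gRNA libraries lie between 24.8 and 27.6 CPM where untreated Control libraries lie between 1.76 and 3.01 CPM.

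The second experiment measured TNFRSF12A in samples that played no part in its choice. Control gRNA neurons had 2.53, 1.85, 1.78, 3.01 and 1.76 CPM untreated and 34.8, 39.4, 36.3, 37.2 and 37.3 CPM with vincristine. Every treated library exceeded every untreated one, and the log2 change was 4.09 ± 0.12 (SE, adjusted p = 8.58e-29). JUN gRNA neurons began at 1.90, 2.97, 3.00, 2.13 and 2.38 CPM, and reached 15.6, 14.4, 17.0, 13.9 and 11.4 CPM. Their log2 change was 2.54 ± 0.12 (adjusted p = 2.67e-21). It differed from that of the Control by -1.55 ± 0.17 (SE, adjusted p = 1.07e-09), while the untreated levels differed by 0.19 ± 0.13, not called (95% interval -0.08 to 0.46).

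ATF2 gRNA neurons had a high level of TNFRSF12A before any drug. Their untreated libraries read 27.6, 25.7, 25.1, 24.8 and 26.7 CPM, all above all untreated Control libraries, a log2 difference of 3.58 ± 0.12 (SE, adjusted p = 3.83e-27). Vincristine took them to 37.8, 43.2, 44.2 and 39.8 CPM, with no overlap and a log2 change of 0.67 ± 0.10 (adjusted p = 1.91e-05). That change differed from the one in Control neurons by -3.42 ± 0.16 and from the one in JUN gRNA neurons by -1.88 ± 0.16 (adjusted p = 5.19e-21 and 1.22e-11). With vincristine in both, ATF2 gRNA and Control gRNA neurons differed by 0.16 ± 0.10 (95% interval -0.05 to 0.37), which was not called (adjusted p = 0.240) but was when only the groups compared were fitted (adjusted p = 0.0256). JUN gRNA neurons with vincristine were below treated Control neurons, with a log2 difference of -1.35 ± 0.10. The exons of TNFRSF12A share 40 bases with CLDN6 on the other strand. CLDN6 averaged 9.98 CPM in untreated Control, 19.0 CPM in treated Control and 0.939 CPM in untreated ATF2 gRNA neurons. Among the knockout lines it averaged 2.57 CPM in untreated and 4.71 CPM in treated WT, and 0.132 and 0.209 CPM in double KO neurons. The part of CLDN6 in the TNFRSF12A counts was not tested.

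Over the 14 group means, centred within each experiment, the gene whose pattern was most like that of TNFRSF12A among 16926 genes tested in both experiments was DDIT3 (Pearson r = 0.993). DDIT3 encodes CHOP, a transcription factor of the integrated stress response. TMEM130 (r = 0.970), ELMSAN1 (0.970), TRIB3 (0.967), a target of CHOP, and TRIM66 (0.965) followed. These values describe 14 means of 61 libraries and share control lines, libraries and normalisation, so they carry no test. DDIT3 averaged 12.5 CPM in untreated and 110 CPM in treated WT neurons, and 7.93 and 8.36 CPM in double KO neurons. With the Control guide it went from 19.5 to 145 CPM, while untreated ATF2 gRNA neurons already had 113 CPM and treated ones 165 CPM. Treated JUN gRNA neurons had 71.0 CPM. Within the receptors, FAS (r = 0.791, rank 367) and TNFRSF10B (0.756, rank 526) were the most like TNFRSF12A, and NGFR (-0.673) and TNFRSF21 (-0.716) ran the opposite way.

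**Figure D3:**
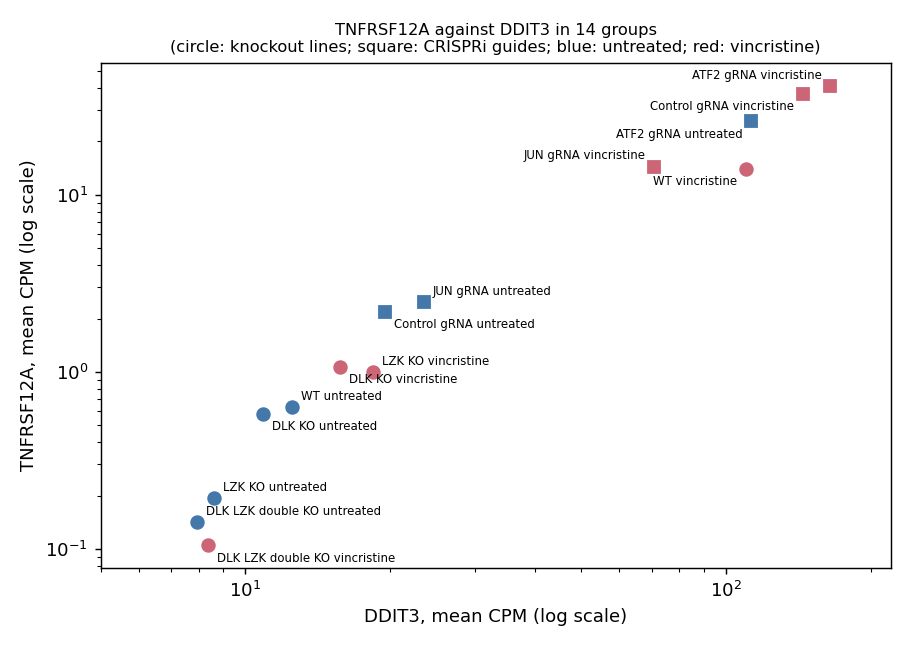
Mean TNFRSF12A (vertical axis) against mean DDIT3 (horizontal axis), both in CPM on logarithmic axes, for 8 groups of the knockout lines (circles) and 6 of the CRISPR interference lines (squares), untreated in blue and vincristine in red. Untreated ATF2 gRNA neurons (DDIT3 at 113 CPM) sit among the treated WT, Control and JUN gRNA neurons, away from the other untreated groups.

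TNFRSF10B (chr8:23020133-23069179, minus strand) encodes DR5, a death receptor for the ligand TRAIL whose gene is a known target of both CHOP and p53. Vincristine raised it in WT neurons from 7.93, 5.41, 5.76 and 6.56 CPM to 21.1, 18.7, 21.1 and 23.1 CPM, a log2 change of 1.71 ± 0.14 (SE, adjusted p = 3.23e-12) with no overlap. In untreated knockout lines it was already low, averaging 1.61 CPM in DLK KO, 1.79 CPM in LZK KO and 2.97 CPM in double KO neurons, all below every WT library (log2 differences of -1.98 ± 0.20, -1.81 ± 0.20 and -1.11 ± 0.17). With vincristine these lines averaged 1.75, 3.14 and 2.99 CPM. The change was 0.14 ± 0.24 in DLK KO and 0.02 ± 0.19 in double KO neurons, neither called, and these differed from the WT change by -1.58 ± 0.28 (adjusted p = 0.000112) and -1.69 ± 0.24 (adjusted p = 1.69e-06).

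In LZK KO neurons the rise of TNFRSF10B by 0.80 ± 0.23 was called at an adjusted p of 0.0358. That call was lost without any one of LZK KO untreated replicates 1, 2 and 4 or vincristine replicates 1, 3 and 4 (adjusted p = 0.0592 to 0.118), with no filter on low counts (0.0748) and when only the groups compared were fitted (0.124). Its difference from the WT change, -0.92 ± 0.27 (adjusted p = 0.0224), was lost when 1 of 3 LZK KO libraries was left out (untreated replicate 2, 0.0649, untreated replicate 3, 0.0797, or vincristine replicate 2, 0.0513), and with no filter (0.0543). Double KO and LZK KO neurons did not differ in this change by the test (-0.78 ± 0.30, 95% interval -1.38 to -0.17, adjusted p = 0.343).

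In the CRISPR interference neurons, Control gRNA libraries had 15.6, 15.6, 14.3, 16.8 and 14.6 CPM of TNFRSF10B untreated and 44.5, 46.6, 45.7, 43.6 and 40.7 CPM with vincristine, without overlap and with a log2 change of 1.53 ± 0.06 (adjusted p = 1.70e-24). Untreated ATF2 gRNA libraries already lay at 49.2, 46.1, 44.4, 43.3 and 44.2 CPM, above every untreated Control library by 1.56 ± 0.06 on the log2 scale. Vincristine added 0.15 ± 0.06 to this, not called (adjusted p = 0.166). TNFRSF10B was also higher in untreated JUN gRNA neurons (30.4 CPM ± 1.56, log2 difference 0.99 ± 0.06, adjusted p = 1.09e-16), and rose there by 0.29 ± 0.06 to 37.1 CPM ± 3.48, with overlap. The changes in ATF2 and JUN gRNA neurons differed from that of the Control by -1.37 ± 0.09 and -1.24 ± 0.09, and did not pass the test against each other (-0.14 ± 0.09, 95% interval -0.31 to 0.04). TNFRSF10B shares 67 exon bases with RHOBTB2 on the other strand, a gene at 108 CPM in untreated and 87.9 CPM in treated Control neurons.

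TNFRSF10D (chr8:23135588-23164030, minus strand) encodes a TRAIL receptor with a truncated death domain that acts as a decoy. It had 0 to 14 reads a library in the first experiment, and no comparison of it there was called. Untreated ATF2 gRNA libraries had 3.27, 2.86, 3.88, 2.41 and 3.53 CPM, above the 0.935, 0.847, 1.09, 1.02 and 0.344 CPM of the Control libraries (log2 difference 1.91 ± 0.31, adjusted p = 1.35e-06). Vincristine did not change it by the test in any of the 3 CRISPR interference lines (log2 changes of 0.57 ± 0.31, 0.31 ± 0.30 and 0.07 ± 0.30 for the Control, ATF2 and JUN guides).

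FAS, the receptor of FAS ligand and a p53 target (chr10:88990582-89015785, plus strand), was expressed at a low level throughout. WT libraries had 0.956, 1.21, 0.983 and 0.795 CPM untreated and 1.72, 1.44, 1.65 and 1.94 CPM with vincristine. All 4 treated libraries were higher, but the log2 change of 0.76 ± 0.32 was not called (adjusted p = 0.0698). Only through these treated libraries did FAS have enough counts to test in the first experiment, so comparisons with them are a description. In untreated double KO neurons FAS had 9 reads in all, a ratio of 0.203 to WT (counting interval 0.0874 to 0.421, adjusted p = 0.000125). Control gRNA libraries went from 0.208, 0.212, 0.148, 0.173 and 0.181 CPM to 0.500, 0.863, 0.588, 0.485 and 0.348 CPM, or from 46 to 177 reads in all. The ratio was 3.15 (counting interval 2.26 to 4.45, adjusted p = 0.00643), and no treated library overlapped an untreated one.

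Untreated ATF2 gRNA neurons had 0.907, 1.12, 1.43, 0.948 and 1.73 CPM of FAS, each above every Control library of either treatment (ratio to untreated Control 6.73, counting interval 4.93 to 9.38, adjusted p = 6.92e-06). With vincristine they averaged 1.34 CPM ± 0.624 and the change was not called. FAS shares 380 exon bases with ACTA2 on the other strand, and the strand setting of the counting is not given in the sources used here. In the CRISPR interference neurons ACTA2 averaged 0.0397 CPM in untreated Control, 0.249 CPM in treated Control and 1.10 CPM in untreated ATF2 gRNA neurons, in the same order as FAS. In WT neurons it averaged 0.290 CPM untreated and 0.126 CPM with vincristine, in the order opposite to FAS. The part of ACTA2 in the FAS counts was not tested.

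TNFRSF1A, the widely expressed TNF receptor with a death domain (chr12:6328757-6342114, minus strand), rose with vincristine in WT neurons. Its libraries went from 4.11, 4.10, 5.41 and 5.56 CPM to 8.61, 8.99, 10.5 and 7.87 CPM, without overlap (log2 change 0.91 ± 0.15, adjusted p = 1.69e-05). Its untreated level differed from WT in opposite directions among the 3 knockout lines. It was higher than WT in DLK KO neurons (7.77 CPM ± 0.517, log2 difference 0.69 ± 0.16) and lower in LZK KO (2.03 CPM ± 0.305, -1.22 ± 0.20) and double KO neurons (2.33 CPM ± 0.474, -1.03 ± 0.18), each without overlap. None of the 3 lines had a called change with vincristine, and the change differed from WT by -0.78 ± 0.21 in DLK KO (adjusted p = 0.00854) and by -1.13 ± 0.26 in double KO neurons (adjusted p = 0.00184).

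In Control gRNA neurons TNFRSF1A went from 17.2, 18.4, 16.8, 16.0 and 18.6 CPM to 18.9, 22.0, 21.5, 21.6 and 21.5 CPM, a log2 change of 0.28 ± 0.08 (adjusted p = 0.00679). The untreated ATF2 gRNA neurons exceeded this, at 26.9 CPM ± 2.00 (log2 difference 0.63 ± 0.08, adjusted p = 2.03e-08). Untreated JUN gRNA neurons were lower, at 14.4 CPM ± 1.66 (log2 difference -0.27 ± 0.08, adjusted p = 0.0244). That last call was lost without any one of Control gRNA untreated replicates 2 and 5 or JUN gRNA untreated replicates 2, 4 and 5 (adjusted p = 0.0668 to 0.0963).

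TNFRSF21 (DR6, chr6:47231532-47309905, minus strand) is a death receptor tied to axon degeneration, and was the one receptor called lower with vincristine in WT neurons. WT libraries fell from 47.4, 54.0, 51.7 and 52.8 CPM to 37.2, 35.8, 40.5 and 39.1 CPM, without overlap (log2 change -0.43 ± 0.08, adjusted p = 3.71e-05). The fall was not seen as a called change in DLK KO, LZK KO or double KO neurons (0.16 ± 0.08, 0.05 ± 0.08 and -0.04 ± 0.07). Each of these changes differed from that of WT, by 0.59 ± 0.11, 0.48 ± 0.11 and 0.39 ± 0.11 (adjusted p = 0.000181, 0.00284 and 0.00890). Before treatment TNFRSF21 was lower than WT in DLK KO (40.0 CPM ± 2.47) and LZK KO neurons (42.1 CPM ± 5.78) and higher in double KO neurons, at 64.5, 62.9, 62.8 and 64.5 CPM. The 8 tested genes within 1 Mb of TNFRSF21 had median log2 differences from WT of -0.27 in DLK KO (2 higher, 2 lower), -0.54 in LZK KO (0 higher, 4 lower) and 0.34 in double KO neurons (4 higher, 2 lower), and their part in the level of TNFRSF21 was not tested.

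With the Control guide TNFRSF21 fell from 63.7, 72.1, 66.3, 65.0 and 67.0 CPM to 52.1, 52.6, 50.4, 50.6 and 54.6 CPM (log2 change -0.36 ± 0.05, adjusted p = 1.96e-07). With the JUN guide it fell by 0.30 ± 0.05 from 54.4 CPM ± 2.40. Untreated ATF2 gRNA neurons were the lowest of the 3 lines, at 40.7, 39.7, 37.9, 39.6 and 35.7 CPM, below every Control library of either treatment (log2 difference -0.79 ± 0.05, adjusted p = 4.39e-17). Neither guide's vincristine effect differed from the Control by the test (0.19 ± 0.08 for ATF2, 95% interval 0.03 to 0.35, adjusted p = 0.0775, and 0.06 ± 0.07 for JUN). TNFRSF21 and NGFR were the 2 receptors called lower in untreated ATF2 gRNA than in untreated Control neurons.

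TNFRSF19 (TROY, chr13:23570370-23676104, plus strand) has no death domain and is known as a partner of the Nogo receptor. It rose with vincristine in WT neurons from 14.1, 11.2, 12.2 and 13.2 CPM to 23.2, 20.1, 23.2 and 24.6 CPM (log2 change 0.84 ± 0.10, adjusted p = 5.05e-08). It also rose in DLK KO neurons, from 7.75, 7.88, 8.93 and 8.39 CPM to 11.3, 12.3, 12.9 and 12.9 CPM (0.58 ± 0.12, adjusted p = 0.00157). No library overlapped in either line, and the DLK KO change did not differ from WT by the test (-0.26 ± 0.16, 95% interval -0.58 to 0.06, adjusted p = 0.255). In double KO neurons the change was 0.09 ± 0.12, which differed from WT by -0.75 ± 0.16 (adjusted p = 0.000601).

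LZK KO neurons stood apart for TNFRSF19. They had 29.5, 35.2, 30.6 and 28.3 CPM untreated, all above WT (log2 difference 1.28 ± 0.10, adjusted p = 1.25e-12), while DLK KO and double KO neurons lay below WT (-0.62 ± 0.12 and -0.55 ± 0.11). The summed level of 6 markers of dividing cells was 67.8 to 75.1 CPM in those untreated LZK KO libraries and 11.1 to 13.0 CPM in WT. It was also above WT in untreated DLK KO (18.9 to 20.3 CPM) and double KO libraries (24.9 to 32.5 CPM), where TNFRSF19 was lower than in WT. The part of dividing cells in the level of TNFRSF19 was not tested. Vincristine raised TNFRSF19 in LZK KO neurons by 0.34 ± 0.10 (adjusted p = 0.0361), a call lost without any one of LZK KO untreated replicates 1, 3 and 4 or vincristine replicates 2, 3 and 4 (adjusted p = 0.0574 to 0.128), with a replicate block (0.0510), with no filter (0.0844) and with only the groups compared (0.109). The difference from WT of -0.50 ± 0.14 (adjusted p = 0.0157) was lost when untreated replicate 2 of LZK KO was left out (0.0519) or that of WT (0.0504), and with only the groups compared (0.0558).

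TNFRSF19 also rose with vincristine in Control gRNA neurons, and its untreated level with the ATF2 guide was not called different. Control libraries went from 24.5, 22.7, 26.1, 28.1 and 25.2 CPM to 45.2, 46.4, 47.2, 44.2 and 35.7 CPM (log2 change 0.79 ± 0.08, adjusted p = 1.20e-10). Untreated ATF2 gRNA libraries had 18.8, 29.0, 24.2, 26.0 and 26.2 CPM and overlapped the Control (log2 difference -0.03 ± 0.09, 95% interval -0.20 to 0.14). With vincristine they read 24.9, 24.6, 22.6 and 22.1 CPM, a change of -0.08 ± 0.09 that differed from the Control by -0.87 ± 0.12 (adjusted p = 4.72e-07). JUN gRNA neurons rose by 0.34 ± 0.09, a difference from the Control of -0.45 ± 0.12 (adjusted p = 0.00584). With vincristine in both, ATF2 gRNA neurons differed from Control by -0.89 ± 0.09 in TNFRSF19 (adjusted p = 1.85e-11) and by 0.19 ± 0.06 in TNFRSF10B (adjusted p = 0.0124).

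The summed level of 5 neural progenitor markers, most of it from NES, moved with vincristine in the lines in which TNFRSF19 was called higher. It went from 779 to 824 CPM in untreated to 1050 to 2090 CPM in treated WT libraries, from 226 to 295 to 521 to 635 CPM in DLK KO and from 549 to 703 to 1050 to 1250 CPM in LZK KO libraries. Control libraries went from 1330 to 1420 CPM to 2560 to 2660 CPM and JUN gRNA libraries from 965 to 1090 CPM to 1670 to 1770 CPM. The sum overlapped between treatments in double KO (290 to 303 and 288 to 305 CPM) and ATF2 gRNA libraries (763 to 838 and 729 to 838 CPM). SOX2 and PAX6, which define progenitors, were above 0 in every library but low beside NES. Their medians over all libraries were 11.6 and 2.27 CPM in the first experiment, where NES had 532 CPM. In the second they were 16.1 and 4.52 CPM, against 1290 CPM for NES. Whether SOX2 and PAX6 moved with vincristine is not given here, and the part of these cells or genes in the level of TNFRSF19 was not tested.

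EDA2R (chrX:66595637-66639298, minus strand), a receptor of ectodysplasin and a p53 target, could be tested in the second experiment only, since 0 to 11 reads a library were counted in the first. In Control gRNA neurons it went from 2.72, 2.12, 2.71, 3.18 and 3.04 CPM to 6.37, 6.36, 5.77, 4.06 and 5.02 CPM (log2 change 1.00 ± 0.15, adjusted p = 4.86e-07). Untreated ATF2 gRNA libraries were above all untreated Control libraries, at 4.81, 6.63, 8.66, 5.69 and 6.76 CPM (1.24 ± 0.15, adjusted p = 3.14e-09). Vincristine then added 0.26 ± 0.15, not called, which differed from the Control by -0.74 ± 0.22 (adjusted p = 0.0105).

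With the JUN guide EDA2R was 0.50 ± 0.15 above the Control when untreated, a call lost without Control gRNA untreated replicate 2 (adjusted p = 0.0857) or JUN gRNA untreated replicate 4 (0.139). Its rise with vincristine in JUN gRNA neurons, by 0.44 ± 0.15 (adjusted p = 0.0335), was lost without any one of JUN gRNA untreated replicates 1, 2, 3 and 5 or vincristine replicates 2, 3 and 5 (adjusted p = 0.0506 to 0.120), and with no filter (0.0657).

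**Figure D4:**
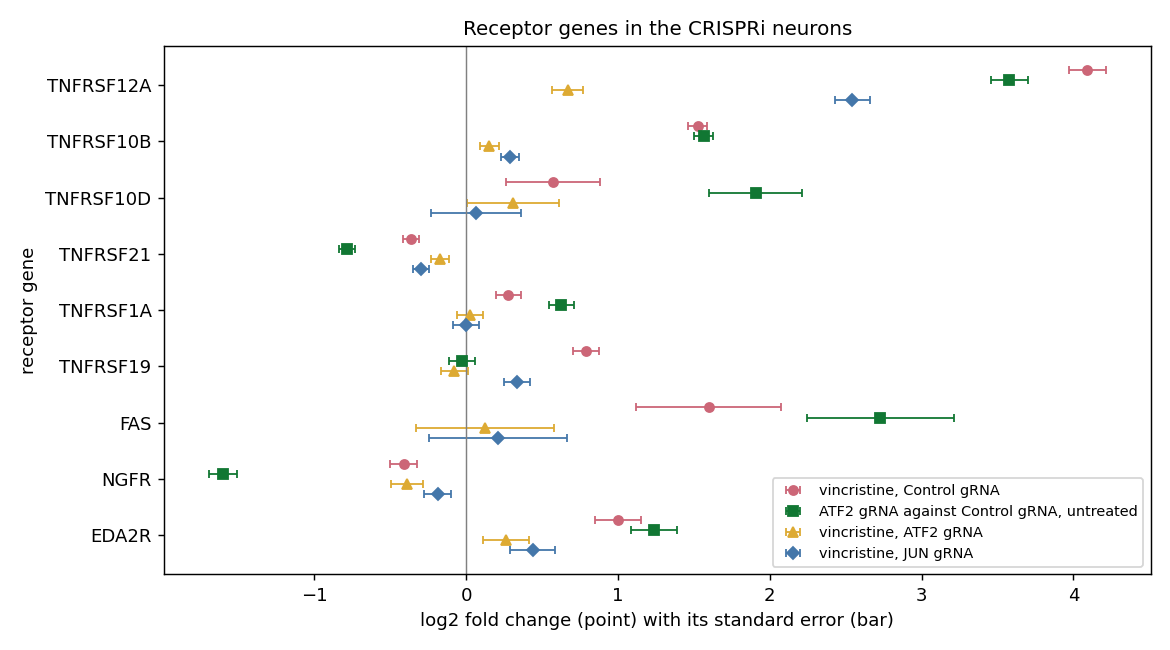
Log2 fold change (horizontal axis, point) with its standard error (bar) of 9 receptor genes (vertical axis) in the CRISPR interference neurons, for vincristine with the Control, ATF2 and JUN guides and for the untreated ATF2 guide against the untreated Control guide. For TNFRSF12A and TNFRSF10B the untreated ATF2 difference (3.58 and 1.56) comes near the vincristine effect in Control neurons (4.09 and 1.53), and for TNFRSF19 it does not (-0.03 against 0.79).

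NGFR, the low-affinity neurotrophin receptor (chr17:49495293-49515017, plus strand), differed most between the untreated knockout lines. Untreated WT libraries had 14.3, 18.1, 17.0 and 19.8 CPM and DLK KO libraries 19.8, 17.0, 18.4 and 22.5 CPM, which overlapped (log2 difference 0.16 ± 0.12, not called). LZK KO libraries were higher, at 38.1, 37.8, 46.7 and 42.0 CPM (1.25 ± 0.12, adjusted p = 8.68e-11). Double KO libraries were the highest, between 125 and 139 CPM with a mean of 131 CPM ± 6.32, a log2 difference from WT of 2.92 ± 0.12 (adjusted p = 1.59e-21). Neither higher group overlapped WT. The 35 tested genes within 1 Mb of NGFR had a median log2 difference of 0.18 in double KO neurons, with 10 called higher and 4 lower.

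Markers of other cells also differed between the lines. The summed level of 6 markers of neural crest or Schwann cells, which express NGFR, was 18.9 to 23.1 CPM in untreated double KO and 5.83 to 11.2 CPM in WT libraries. It was 1.56 to 4.07 CPM in LZK KO libraries, where NGFR was also above WT. Over all 32 libraries of the first experiment, not split by line, SOX10, which defines that lineage, was at 0 in 18 and no higher than 0.199 CPM. The list of 6 pluripotent stem cell markers summed to 54.0 to 59.9 CPM in double KO and 3.37 to 4.67 CPM in WT libraries, mostly from LIN28A. NANOG was at 0 in 15 and TDGF1 at 0 in 25 of those 32 libraries. Untreated ATF2 gRNA neurons had more of both marker lists than Control (neural crest or Schwann 34.9 to 40.4 against 10.4 to 11.8 CPM, pluripotent 33.9 to 40.4 against 10.3 to 13.5 CPM), and their NGFR was lower. The part of such cells in the level of NGFR was not tested.

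With vincristine NGFR fell in Control gRNA neurons, from 21.2, 19.1, 19.8, 22.1 and 22.3 CPM to 15.8, 17.2, 16.0, 15.7 and 13.7 CPM (log2 change -0.41 ± 0.09, adjusted p = 0.000203). Untreated ATF2 gRNA neurons had 7.35, 7.30, 6.59, 6.75 and 6.46 CPM, below every Control library (-1.60 ± 0.09, adjusted p = 3.02e-19). Vincristine lowered it there by 0.39 ± 0.10, to 5.97, 5.03, 4.96 and 5.08 CPM (adjusted p = 0.0156), a call lost without ATF2 gRNA vincristine replicate 3 (0.0516) or 4 (0.0662) and with only the groups compared (0.151). Untreated JUN gRNA neurons were lower than Control (log2 difference -0.40 ± 0.09, adjusted p = 0.00152).

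In WT neurons the change of NGFR was -0.25 ± 0.13, not called, with 1 treated library at 9.27 CPM and the others at 15.8 to 16.4 CPM. It was -0.10 ± 0.11 without that library. DLK KO neurons rose by 0.41 ± 0.12 to 28.0, 21.2, 26.1 and 27.8 CPM, overlapping the untreated libraries (adjusted p = 0.0355). This call was lost without any one of DLK KO untreated replicates 1, 2 and 3 or vincristine replicates 1, 3 and 4 (adjusted p = 0.0694 to 0.123). The DLK KO change differed from that of WT by 0.66 ± 0.18 (adjusted p = 0.00710), and by 0.51 ± 0.15 without the low WT library (adjusted p = 0.0113). The LZK KO change of 0.25 ± 0.11 was not called, and its difference from WT (0.50 ± 0.17, adjusted p = 0.0467) was lost without that library (0.0857), without any one of 8 other libraries (LZK KO untreated replicates 1, 2 and 4 and vincristine replicates 3 and 4, WT untreated replicates 2, 3 and 4, adjusted p = 0.0555 to 0.0943), with a replicate block (0.0623) and with only the groups compared (0.131). Double KO neurons stayed at 119 to 128 CPM with vincristine (change -0.08 ± 0.10).

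**Figure D5:**
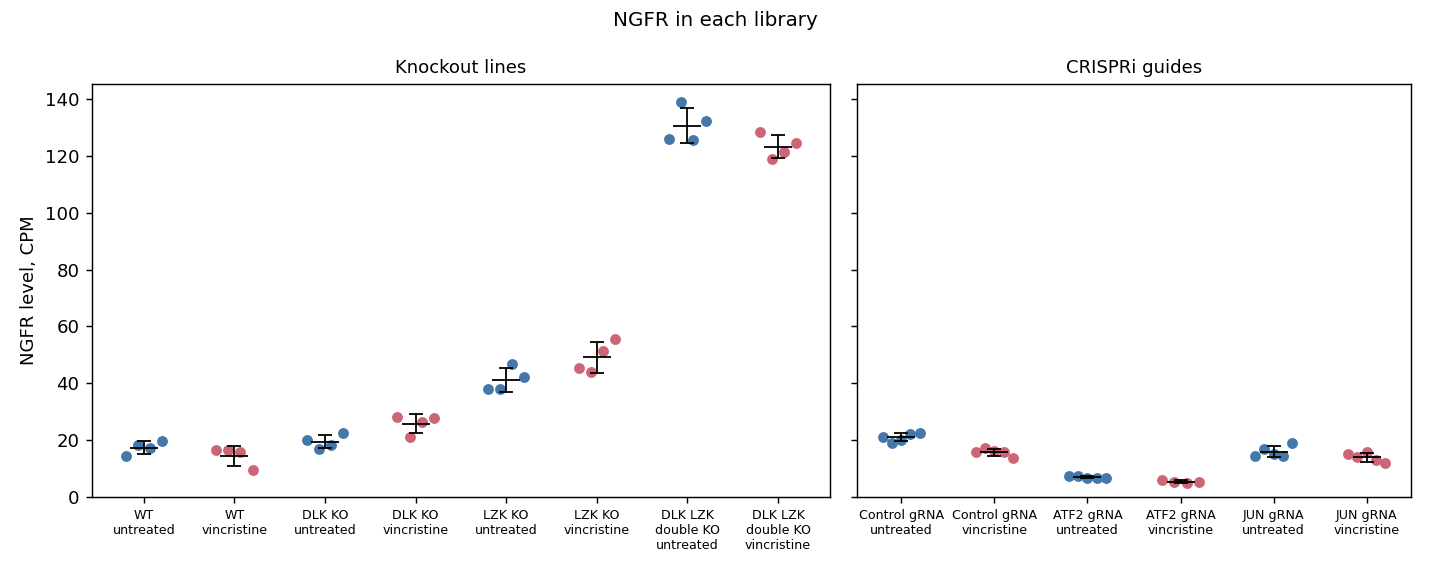
NGFR in CPM (vertical axis, linear from 0) in each library (points, blue untreated, red vincristine) of the knockout lines (left) and the CRISPR interference lines (right), with the mean (dash) and SD (bars). Double KO libraries lie between 119 and 139 CPM, and ATF2 gRNA libraries between 4.96 and 7.35 CPM.

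The receptors' other pathway genes were read from lists. Of 18 TNF ligands, 3 could be tested in the first experiment and 10 in the second, and EDA, whose product binds EDA2R, was the one called with vincristine, lower in WT (-0.63 ± 0.20, adjusted p = 0.0138) and Control gRNA neurons (-0.36 ± 0.14, adjusted p = 0.0394). TNFSF12, the ligand of TNFRSF12A, had at most 0.728 CPM in any library, and TNFSF10 (TRAIL) at most 0.356 CPM. Of 19 other TNF receptors, 2 and 6 could be tested. The edgeR test called none of them with vincristine in WT neurons (30.2% of all genes called), with 0 at an unadjusted p under 0.05 and 0 called by DESeq2. It also called none in Control neurons (35.3% of all genes called), with 1 at an unadjusted p under 0.05 and 1 called by DESeq2.

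Of 21 death adaptors and caspases, 13 could be tested in WT neurons, where 2 rose and 3 fell (5 of 13, against 30.2% of all genes), and 15 in Control gRNA neurons, where 5 rose and 2 fell (7 of 15, against 35.3%). CASP9 rose (log2 change 0.39 ± 0.06, SE) and BID (-0.55 ± 0.09) and CASP2 (-0.33 ± 0.06) fell in Control neurons. CASP8, the initiator caspase of death receptors, had at most 0.596 CPM, and its adaptor FADD 18.4 CPM in untreated WT neurons. Among untreated ATF2 gRNA neurons 6 of the 15 were higher and 5 lower than in Control (39.9% of all genes called). With vincristine edgeR called 0 of the 15 in ATF2 gRNA neurons, where 6.10% of all genes were called (1 of the 15 at an unadjusted p under 0.05, 0 by DESeq2).

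Of 22 TRAF adaptors and NF-kB genes, all tested, 5 rose and 4 fell in WT (30.2% of all genes called) and 6 rose and 2 fell in Control gRNA neurons (35.3%), shares near those over all genes. TRAF5 rose in both (0.94 ± 0.14 and 1.00 ± 0.14), as did MAP3K14, the kinase of non-canonical NF-kB signalling (0.64 ± 0.12 and 0.40 ± 0.08), while NFKB1 (-0.35 ± 0.12 and -0.47 ± 0.14) and TRAF3 (-0.23 ± 0.09 and -0.37 ± 0.04) fell in both. In untreated ATF2 gRNA neurons TRAF5 was lower than in Control (-1.07 ± 0.15) and MAP3K14 higher (0.66 ± 0.08).

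Of 17 neurotrophin receptor partners matched, 16 could be tested in Control gRNA neurons, where 4 rose and 10 fell with vincristine (35.3% of all genes called). SORCS1, a sortilin family receptor, rose (1.38 ± 0.08) and SORT1 (-0.67 ± 0.04) and SORCS3 (-0.77 ± 0.10) fell. In untreated double KO neurons, where NGFR was highest, 9 of 15 were higher and 3 lower than in WT (45.7% of all genes called), among them the NGFR ligands BDNF (3.06 ± 0.20) and NTF3 (2.99 ± 0.39) and SORCS1 (1.67 ± 0.10). The NTF3 value rests on few reads, since NTF3 averaged 0.29 CPM ± 0.218 in untreated WT and 2.33 CPM ± 0.518 in untreated double KO neurons. BDNF (3.25 ± 0.13) and NTF3 (2.22 ± 0.15) were also higher in untreated ATF2 gRNA neurons than in Control, where NGFR was lower.

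The last lists hold known regulators and co-targets of these receptors. Of 16 p53 targets outside the family, 14 could be tested in WT neurons, where 5 rose and 2 fell (30.2% of all genes called), and 16 in Control gRNA neurons, where 9 rose and 3 fell (35.3%). CDKN1A (3.24 ± 0.22 in WT, 1.88 ± 0.08 in Control) and BBC3 (2.58 ± 0.16 and 2.43 ± 0.09) rose in both and ZMAT3 fell in both (-0.69 ± 0.10 and -0.23 ± 0.08). In untreated ATF2 gRNA neurons 11 of the 16 were higher and 1 lower than in Control (39.9%). Among the higher were GDF15 (5.28 ± 0.32), CDKN1A (2.06 ± 0.08) and BBC3 (0.93 ± 0.09). The GDF15 value rests on a low level in untreated Control neurons, 0.214 CPM ± 0.0619 against 8.33 CPM ± 0.963 with the ATF2 guide. All 10 integrated stress response genes rose in WT neurons, and 9 rose and 1 (ATF4, -0.10 ± 0.04) fell in Control neurons. In double KO neurons edgeR called none of either list with vincristine, where 0.0658% of all genes were called. At an unadjusted p under 0.05 were 2 p53 targets and 0 stress response genes, and DESeq2 called 0. In untreated ATF2 gRNA neurons 6 of the 10 were higher and 1 lower, with DDIT3 (2.53 ± 0.07) and TRIB3 (1.80 ± 0.06) well above Control and ATF3 close to it (0.20 ± 0.07), although ATF3 had risen by 3.48 ± 0.07 with vincristine in Control neurons.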

How the data were processed

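Messenger RNA was sequenced from 61 libraries of neurons in 14 groups. The authors deposited raw counts of reads per gene, in 1 table for each experiment. Per the labels' protocols, polyadenylated RNA was made into libraries with a stranded kit. Per the submitters' processing notes, cutadapt 3.4, STAR, featureCounts of Subread 2.0.1 and the build GRCh38 were used. The version of STAR, the strand setting and the counting options are not given in the sources used here. Of 58440 gene identifiers, 58320 matched a GENCODE 29 symbol.

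Library totals ran from 8410729 to 14647819 counts in the first experiment and from 38925807 to 88392414 in the second. No 2 libraries of a group were copies (the lowest chi-square per degree of freedom over genes was 1.67).

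Each experiment was fitted alone with edgeR 4.0.16 (R 4.3.3), with the quasi-likelihood test, TMM scaling, robust dispersions, 1 mean for each group and all libraries of that experiment. The filter (filterByExpr, minimum count 10) left 18235 and 20759 genes, and p-values were adjusted by Benjamini-Hochberg over these. Levels are CPM on TMM-scaled totals, or RPKM between genes. Counting intervals are exact 95% intervals and cover counting error only. The code was tested on simulated data. Figures were drawn with matplotlib 3.10.9.

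TNFRSF12A was left out of all counts of the first experiment, which holds the WT neurons it was chosen on. FAS, which passed the filter there only through the treated WT libraries, was kept in the counts. Members, lists and tests were chosen with earlier results of these data known. In addition, the comparisons of vincristine-treated lines with their treated control line were added after values had been seen. Genes named in each list were those called with vincristine in Control gRNA neurons at a mean log2 CPM of at least 0, up to 3 highest and 3 lowest, of which 1 is not reported here. The 5 genes most like TNFRSF12A were ranked by Pearson's r, and the targeted genes were named as a check. TNFSF12, TNFSF10, CASP8, FADD and the overlapping genes CLDN6, RHOBTB2 and ACTA2 were named after their values were seen.

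The alternatives left out each library in turn, fitted only the groups compared, added a replicate block, scaled by RLE, dropped the filter or set it to a mean of 1 CPM, or used DESeq2 1.42.0 and its own size factors.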

Additional observations from a re-analysis of the deposited data

Results flagged for a closer look

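Dixon's ratio was computed for 105 pairs of a receptor and a group of 4 or 5 libraries, and 4 exceeded the 95% critical value for their number of libraries. Chance alone flags about 1 in 20 such groups. NGFR read 9.27 CPM in WT vincristine replicate 4, where the other 3 libraries had 15.8 to 16.4 CPM. In ATF2 gRNA vincristine replicate 2 NGFR was high, at 5.97 CPM against 4.96 to 5.08 CPM. TNFRSF1A was low in Control gRNA vincristine replicate 1, at 18.9 CPM against 21.5 to 21.9 CPM, and TNFRSF19 in Control gRNA vincristine replicate 5, at 35.7 CPM against 44.2 to 47.2 CPM.

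The vincristine effect differed between lines by the edgeR interaction test in 20 cases, given here as differences of log2 changes. TNFRSF10B rose less than in the control line in all 5 lines compared, with differences from WT of -1.58 (DLK KO), -0.92 (LZK KO) and -1.69 (double KO), and by -1.37 with the ATF2 and -1.24 with the JUN guide against the Control guide. TNFRSF19 differed by -0.50 in LZK KO, -0.75 in double KO, -0.87 with the ATF2 and -0.45 with the JUN guide. The effect on TNFRSF1A was smaller than in WT, with differences of -0.78 (DLK KO) and -1.13 (double KO). TNFRSF21, which fell in WT, had differences of 0.59 (DLK KO), 0.48 (LZK KO) and 0.39 (double KO). NGFR differed by 0.66 in DLK KO and 0.50 in LZK KO neurons. TNFRSF12A differed by -3.42 with the ATF2 guide and -1.55 with the JUN guide from the Control, and by -1.88 between the ATF2 and JUN guides. EDA2R differed by -0.74 with the ATF2 guide.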

How the results depend on the processing

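Of 102 called results on a receptor, 89 kept their direction and call under every alternative run and 13 lost the call in at least 1. The 89 include the calls of FAS against treated WT neurons, which are a description because FAS passed the filter only through those libraries. Results that were not called were followed singly only for TNFRSF12A in the second experiment, 2 in all. Of these 1 gained a call, with vincristine in ATF2 gRNA against Control gRNA neurons. Other receptors gained calls too. With 1 library left out, the number called reached 5 for the difference between DLK KO and WT (4 as reported) and for untreated DLK KO against WT (4). It reached 4 for the difference between the JUN and Control guides (3), and 7 for treated double KO against treated WT (6). None of the 1712 alternative values changed sign against a called main value. Without a filter on low counts, the number of receptors called was 0 for the vincristine effect in LZK KO neurons (2 as reported), 1 for the difference between double KO and DLK KO neurons (0) and 2 for that between the ATF2 and JUN guides (1). With only the groups compared in the fit, it was 0 for the effect in LZK KO neurons, 1 for that with the ATF2 guide (2), 2 for the difference between LZK KO and WT (4) and 2 for that between double KO and DLK KO neurons (0). The cause was not tested.

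Leaving out 1 library at a time gave 0 to 1 receptors for the effect in LZK KO, 1 to 2 for DLK KO (2) and 1 to 3 for ATF2 gRNA neurons. It gave 1 to 4 for the difference between LZK KO and WT and 1 to 2 for that between the ATF2 and JUN guides. Calls on low levels or small differences depended on single libraries, named with the results above. Calls counted with vincristine in both lines were among these. TNFRSF21 in DLK KO and LZK KO against WT lost its call without DLK KO vincristine replicate 1 or 2, LZK KO vincristine replicate 1, 3 or 4, or WT vincristine replicate 1, 2 or 3 (adjusted p = 0.0572 to 0.209). FAS in ATF2 gRNA against Control gRNA neurons lost it without ATF2 gRNA vincristine replicate 3, 4 or 5 or Control gRNA vincristine replicate 1 or 5 (adjusted p = 0.0503 to 0.103).

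The labels do not say whether samples of the same replicate number shared a batch. Deviations of such samples from the group means correlated above 0.1 in 5 of 16 pairs in the first experiment (r from -0.51 to 0.39). In the second they did so in 8 of 14 pairs (-0.024 to 0.353). In each experiment 5 samples correlated best with their own number. With a replicate block, the number of receptors called was 1 for the effect in LZK KO neurons and 3 for the difference between LZK KO and WT. The calls lost under it were TNFRSF19 in LZK KO neurons (adjusted p = 0.0510), NGFR between LZK KO and WT (0.0623), and with vincristine TNFRSF21 in LZK KO against WT (0.0566) and FAS in ATF2 gRNA against Control gRNA neurons (0.0635).

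At the depth of the first experiment, TNFRSF12A in the untreated knockout lines, FAS, TNFRSF10D and EDA2R had 0 to 19 reads a library.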
